A study of Mus musculus with 3 samples.

Results

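YAP (gene Yap1) and TAZ (gene Wwtr1), the TEAD factors that carry them to DNA, and a set of their target genes were followed across sarcoma cells of mice with an inducible EWS/ATF1 fusion. The members are the 10 listed symbols Yap1, Wwtr1, Tead1, Tead2, Tead3, Tead4, Ccn1, Ccn2, Ankrd1 and Amotl2, out of 19938 genes named on the arrays, and all 10 had a probe set. The rule names symbols and uses no measured value, but the members and the lists below were chosen with earlier results of these data known. Their counts beside those of all genes are therefore descriptions and no test. Expression was read on 3 mouse gene arrays, 1 per group, from animals or cells of mixed C57/BL6, 129 and ICR background. The array labelled control holds RNA of cultured tumor cells at 0 microg/ml doxycycline for 24 h. The array labelled high doxycycline holds RNA of cells given 0.2 microg/ml for 24 h. The array labelled tumor holds RNA of a tumor cut out of a mouse that had received doxycycline for 3 months. The EWS/ATF1 transgene is common to all 3 groups, and no source used here gives the promoter or cell type that drives it. The descriptions of both culture samples carry the number 1297 and that of the tumor sample 1281, without saying what the numbers stand for.

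In the Hippo pathway, MST kinases with the scaffold SAV1 switch on LATS kinases, and these phosphorylate YAP and TAZ, which are then held in the cytoplasm or degraded. Unphosphorylated YAP and TAZ enter the nucleus, bind TEAD factors at the sequence CATTCC and switch on genes of adhesion, matrix and growth. Ccn1 and Ccn2, which encode secreted matricellular proteins, and Ankrd1, which encodes a nuclear ankyrin repeat protein of muscle, are common readouts of this activity in mesenchymal cells. The arrays measure RNA, whereas YAP and TAZ are controlled largely through phosphorylation of the proteins.

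The RefSeq promoter windows of members are shown because the TEAD core motif stands in most of them, in coactivator and target genes alike. Of the members, 7 have a window (GRCm38.p6, the 250 bases before an annotated start), and 6 of these hold CATTCC on either strand: Yap1, Wwtr1, Tead3, Ccn1, Ankrd1 and Amotl2. Some genes have several windows: counted by window, 8 of the members' 10 hold it, against 12.6% of all 32851 windows. These are not separate promoters throughout: both Wwtr1 windows overlap and hold the same copy, and Tead3 has several windows. A share by gene over all genes was not computed. Tead1, Tead4 and Ccn2 have no window in the table. Below, capitals mark CATTCC or its reverse complement GGAATG, all on the coding strand and written 5′ to 3′. The windows lie at chr3:145649986-145650235 (minus strand) for Ccn1, chr19:36119845-36120094 (minus) for Ankrd1, chr9:8004597-8004846 (minus) for Yap1, chr3:57575911-57576160 (minus) for Wwtr1 and chr7:45215542-45215791 (plus) for Tead2.
Ccn1: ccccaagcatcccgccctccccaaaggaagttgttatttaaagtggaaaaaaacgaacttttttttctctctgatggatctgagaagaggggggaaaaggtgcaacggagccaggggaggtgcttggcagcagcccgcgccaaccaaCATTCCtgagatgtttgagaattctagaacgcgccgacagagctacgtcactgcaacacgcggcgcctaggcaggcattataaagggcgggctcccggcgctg
Ankrd1: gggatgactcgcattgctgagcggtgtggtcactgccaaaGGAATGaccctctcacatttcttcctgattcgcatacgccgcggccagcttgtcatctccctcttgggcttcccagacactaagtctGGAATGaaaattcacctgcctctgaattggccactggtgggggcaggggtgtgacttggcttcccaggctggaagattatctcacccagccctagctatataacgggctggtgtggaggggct
Yap1: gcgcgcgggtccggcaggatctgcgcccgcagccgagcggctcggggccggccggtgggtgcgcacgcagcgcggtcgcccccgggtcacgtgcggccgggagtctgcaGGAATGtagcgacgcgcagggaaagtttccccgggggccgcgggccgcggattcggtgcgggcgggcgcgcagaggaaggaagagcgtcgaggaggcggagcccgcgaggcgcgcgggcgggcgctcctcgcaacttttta
Wwtr1: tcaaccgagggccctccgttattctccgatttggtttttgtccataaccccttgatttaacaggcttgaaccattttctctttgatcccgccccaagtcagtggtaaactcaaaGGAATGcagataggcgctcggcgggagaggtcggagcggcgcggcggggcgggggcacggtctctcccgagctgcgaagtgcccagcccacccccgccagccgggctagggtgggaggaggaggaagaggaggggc
Tead2: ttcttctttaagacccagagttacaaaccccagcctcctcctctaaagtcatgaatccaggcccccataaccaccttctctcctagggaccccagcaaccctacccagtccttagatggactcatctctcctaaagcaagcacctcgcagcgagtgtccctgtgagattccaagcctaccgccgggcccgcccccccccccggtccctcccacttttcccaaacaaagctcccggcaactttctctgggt
In Ccn1 the motif begins 103 bases before the start, in Yap1 at 141 and in Wwtr1 at 136. Ankrd1 has 2 copies, at 210 and 123 bases, and Tead2 has none in this window. The Ccn1 window is also the only one of the members' windows with TGACG, the shorter form of the element bound by CREB and ATF1 (as CGTCA, 58 bases before the start), which 17.8% of all windows hold. The full element TGACGTCA (1.55% of all windows), the AP-1 motif TGANTCA (6.75%) and the CArG box of SRF (1.47%) were in none of the members' windows. TGACGTCA contains TGACG on both strands, and a match describes letters only.

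A single array stood for each group, which allows no test; all values describe these arrays, carry no p-value and are limited in precision by that number. Intensities are the deposited linear values, and differences are taken on the log2(intensity + 1) scale, which understates changes of dim genes. The array labelled control is bright in genes of other tissues. Of 10 macrophage markers, 10 lay above the array median there, 2 on high doxycycline and 1 on tumor, with summed intensities of 25564, 2264 and 1249. For 10 endothelial markers the counts were 9, 2 and 2 (sums 13157, 2871 and 1962), and for 13 muscle markers 13, 3 and 2 (32436, 2225 and 1985). For 13 fibroblast and matrix markers they were 13, 9 and 12 (77413, 8087 and 8507), and for 10 smooth muscle and pericyte markers 7, 4 and 4 (6308, 3162 and 2311). No marker was at 0 on any array, and the lowest intensity of any was 52.4. These markers run against the labels of a culture and of a tumor, so directions below are between arrays named by label. Whether labels were exchanged was not tested. An exchange of control and tumor would turn the sign of every difference between them. It would also make high doxycycline against control a comparison of a culture with the tumor. The pair labelled tumor and high doxycycline would then be the comparison of the cultures without and with doxycycline. Fewer cells of a type and less RNA per cell cannot be told apart in such samples.

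**Figure D1:**
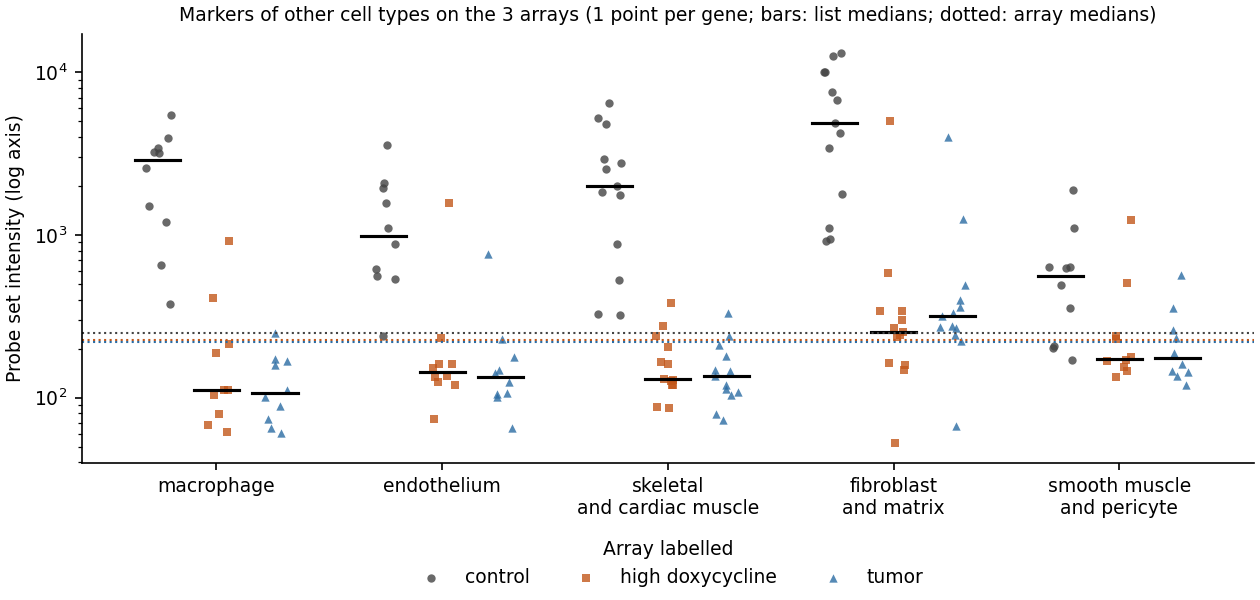
Probe set intensity (log axis) of marker genes of 5 other cell types on the 3 arrays, 1 point per gene, with bars at list medians and dotted lines at array medians. The control median is the highest in every list, and 13 of 13 muscle markers lie above the array median on control against 2 on tumor.

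The coactivator genes were dimmer on both other arrays than on the array labelled control. Yap1 had an intensity of 858 on control, 405 on high doxycycline and 441 for tumor. Wwtr1 had 1288 on control and the same value of 789.6 on both other arrays. Control thus stood alone at the high end for both genes, and the other arrays lay close together. Yap1 was 2.12-fold dimmer on high doxycycline than on control (log2 difference -1.08) and 1.94-fold dimmer on tumor (-0.96). Wwtr1 was 1.63-fold dimmer in each of these comparisons (-0.71).

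The TEAD genes encode the DNA-binding partners of YAP and TAZ, and the 4 paralogs did not share 1 pattern. Tead3 had intensities of 627, 411 and 380 on control, high doxycycline and tumor. Tead4 had 295, 208 and 163, and was above the array median on control alone. Tead1 had 710, 481 and 609 on its brighter probe set and 450, 305 and 384 on the other. For Tead3 and Tead4 control was highest and tumor lowest, whereas for Tead1 the array labelled high doxycycline was lowest on both probe sets. None of these 3 genes reached 2-fold in any comparison: on high doxycycline against control the log2 differences were -0.61 for Tead3, -0.50 for Tead4 and -0.56 for Tead1, and on tumor against control -0.72, -0.85 and -0.22. The 2 probe sets of Tead1 gave nearly the same differences (-0.56 and -0.56, then -0.22 and -0.23). Tead2 was the exception among the 10 members, with 1028 on control, 1170 with high doxycycline and again 1028 for tumor. Its difference of 0.19 on high doxycycline against control became -0.07 under quantile normalization and 0.33 with the arrays shifted to a common median, so its direction depends on the scaling.

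Among the target genes, Ccn1 and Ccn2 had the largest differences from control of all 10 members. The intensity of Ccn1 was 2756 on control, 910 with high doxycycline and 799 for tumor. Ccn2 had 7343, 3188 and 2480 in that order. Both were highest on control and lowest on tumor. Ccn1 was 3.03-fold dimmer on high doxycycline than on control (-1.60 on the log2 scale) and 3.45-fold dimmer on tumor (-1.79). Ccn2 was 2.30-fold dimmer (-1.20) and 2.96-fold dimmer (-1.57). Ankrd1 had 157, 78.5 and 71.4, below the array median on all 3 arrays, and its differences were -0.99 and -1.12. Amotl2, which encodes an angiomotin-like protein that binds YAP at junctions, had 465, 361 and 381, with log2 differences of only -0.37 and -0.29.

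**Figure D2:**
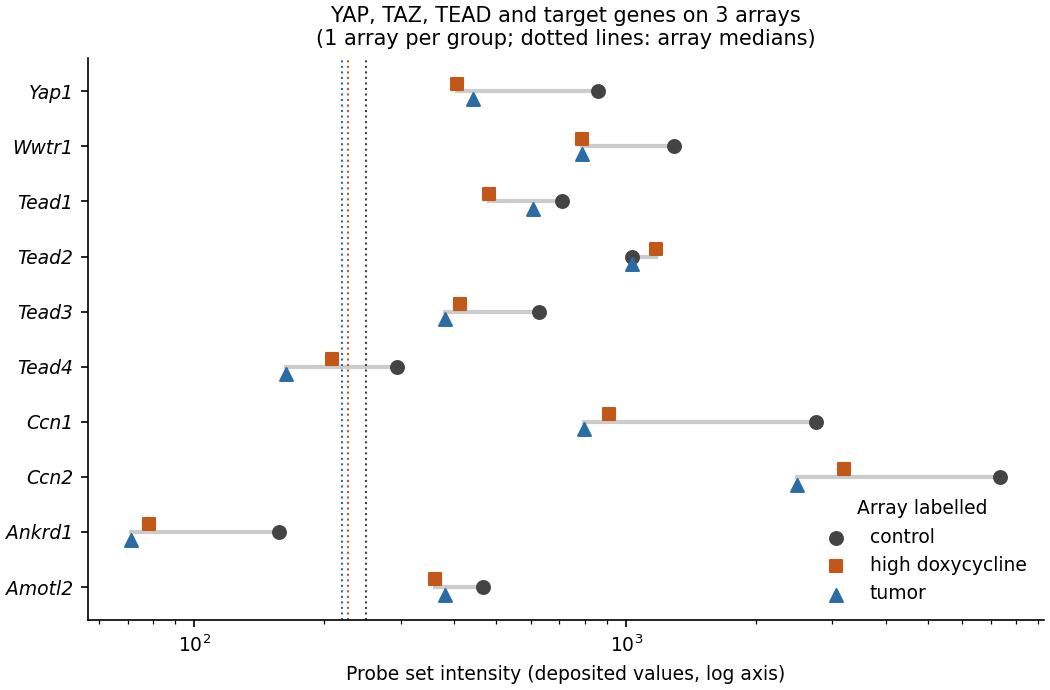
Probe set intensity (log axis) of the 10 genes on the arrays labelled control (circles), high doxycycline (squares) and tumor (triangles), with dotted lines at the array medians and grey bars from lowest to highest value. Control is the highest of the 3 for every gene except Tead2, and Ankrd1 lies left of all 3 medians; positions of different genes are not comparable levels.

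Across the set, the comparison of high doxycycline with control asks, by its labels, what changes within a day of inducing the fusion. Of the 10 members, 9 had a lower value on high doxycycline, as did 44.5% of all genes, and 3 (Yap1, Ccn1 and Ccn2) were at least 2-fold dimmer while none was brighter by that margin. Over all 19938 genes 5.55% were at least 2-fold dimmer, and 10.6% were brighter. A gene counted as bright where its brighter array of the pair exceeded that array's median. By this filter 9 members passed, Tead4 through control alone, and the same 3 were dimmer, against 8.45% dimmer and 17.4% brighter of 11933 bright genes. The median difference of all 10 members was -0.66, against 0 over all genes. The marker lists moved in the same direction, given here as medians of genes that passed the filter. These medians were -3.96 for macrophage, -2.75 for endothelium, -4.05 for muscle, -4.18 for fibroblast and matrix, and -1.19 for smooth muscle. Over all measured markers endothelium had -2.45 and smooth muscle -0.87, with the other lists unchanged. The part of the markers in the members' differences was not tested. Yap1 dropped under 2-fold with a common median (-0.94).

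By its labels, tumor against control asks how the grown tumor differs from cultured cells at 0 microg/ml doxycycline for 24 h. Here 9 of the 10 members had a lower value on tumor, as did 50.3% of all genes, Tead2 was equal, and 3 (Ccn1, Ccn2 and the dim Ankrd1) were at least 2-fold dimmer. Over all genes the share was 6.82% dimmer and 11.3% brighter. Of the 9 that passed the brightness filter 2 were dimmer, against 10.2% dimmer and 18.5% brighter of 12010 genes. The median over all 10 was -0.79 (all genes, -0.0039). This comparison uses the same control array as the one before, so the second set of values is no separate support for the first. For genes that passed the filter, the marker lists had medians of -4.04, -2.79, -4.23, -3.74 and -1.37 in the order given above. Over all measured markers endothelium had -2.51 and smooth muscle -1.18, with the other lists unchanged. The part of the markers was again not tested. Ankrd1 lost 2-fold with a common median (-0.94), quantile normalization (-0.92) and the pseudocounts of 16 (-0.98) and 64 (-0.70). It kept 2-fold under the other 3 of 7 settings, which cannot change the difference of a gene with 1 probe set. Quantile normalization brought Yap1 past 2-fold (-1.11).

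Between tumor and high doxycycline, which do not involve the control array, the members differed little. None of the 10 reached 2-fold; by that margin 0.903% of all genes were brighter and 1.14% dimmer. Of the 8 that passed the filter none reached it either, against 1.58% and 1.94%. Lower on tumor were 6 of the 10, against 43.7% of all genes. The member differences ran from -0.36 for Ccn2 to 0.34 for Tead1, with Ccn1 at -0.19, Yap1 at 0.12 and a median over all 10 of -0.12. Wwtr1 was identical on these arrays, as 34.6% of all probe sets were. Tead2 was identical on control and tumor, as 16.9% were. Of the 10 endothelial markers 2 lay above the array median on each of these arrays, and of the 10 macrophage markers 2 on high doxycycline and 1 on tumor. Medians over all measured markers were -0.15 for macrophage, -0.16 for endothelium, -0.19 for muscle, 0.51 for fibroblast and matrix, and -0.11 for smooth muscle. Of the 13 fibroblast and matrix markers 9 were brighter on tumor and 4 dimmer. At least 2-fold different were Cd14, Egfl7 and Mcam (dimmer on tumor) and Col6a1 (brighter). The part of these markers in the members' differences was not tested.

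Where a gene had several bright probe sets, the spread of their differences shows how far probe sets disagree. In the comparison of high doxycycline with control (664 genes) its median was 0.37 and its percentile 90 was 1.43 (log2). For tumor against control (671 genes) they were 0.38 and 1.55, and for tumor against high doxycycline (649 genes) 0.055 and 0.32. This spread lies within the same arrays and holds nothing of the variation between samples, so it gives no error for a difference between groups. The shift to a common median raises every difference with control by 0.14 for high doxycycline and 0.19 for tumor. After that shift Ccn1 stood at -1.46 and -1.60, Ccn2 at -1.06 and -1.38, and Tead1 on tumor at -0.04.

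**Figure D3:**
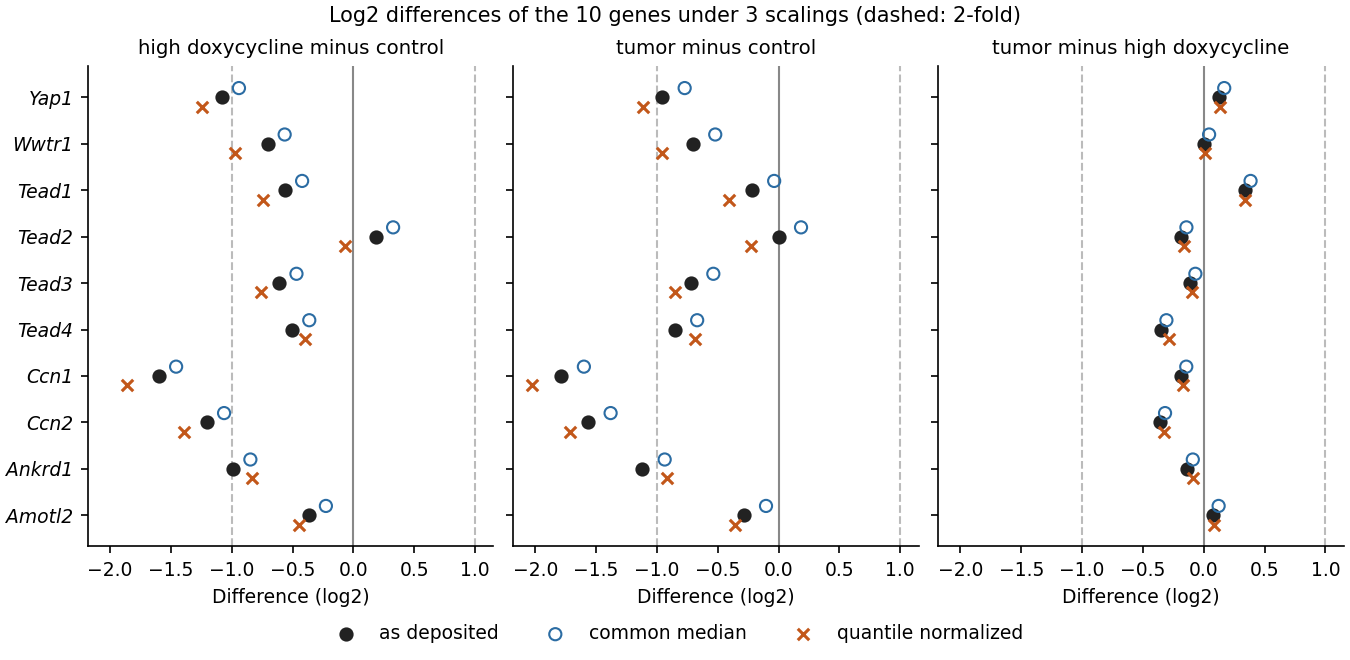
Log2 differences of the 10 genes in the 3 comparisons as deposited (filled), after a shift to a common median (open) and after quantile normalization (crosses), with dashed lines at 2-fold. Ccn1 and Ccn2 stay beyond the left dashed line in both comparisons with control under all 3 scalings, Tead2 changes side, and no gene reaches a dashed line on tumor minus high doxycycline.

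Upstream of YAP, the Hippo kinases and scaffolds held brighter and dimmer genes. Of 19 measured, 2 were at least 2-fold brighter and 1 dimmer on high doxycycline than on control, and 2 were brighter and 3 dimmer on tumor, with a median of 0 over all 19 in both. The shares over all genes were 10.6% brighter and 5.55% dimmer, then 11.3% and 6.82%, so the high doxycycline counts lie at the background. Stk4, the kinase MST1, had 513 on control, 2162 with high doxycycline and 1289 for tumor. Strn3, a subunit of the phosphatase complex that restrains MST kinases, had 363 on control and 1300 on both others. Rassf1, a scaffold that binds MST kinases, was dimmer (646, 289 and 259). Frmd6, a FERM protein upstream of LATS, was 3.17-fold dimmer on tumor (4664, 2621 and 1469 on the 3 arrays). Map4k4, a kinase that can act on LATS, was 2.05-fold dimmer on tumor. Of the LATS kinase genes, Lats1 had 1674, 2003 and 1986. Lats2 had the identical value of 712 on all 3 arrays, as 4314 of all 28856 probe sets had identical values. The origin of such values was not tested, so they are not read as stable expression. In this list 4 and 3 of the 19 genes had a difference of exactly 0 from control, which also enters the medians.

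Among 26 measured YAP-binding, polarity and junction genes, 4 were at least 2-fold dimmer on high doxycycline than on control, 6 were dimmer on tumor, and none was brighter (medians over all 26 of -0.05 and -0.15). Over all genes 5.55% and 6.82% were dimmer, and 10.6% and 11.3% brighter. With a common median, the list medians of genes that passed the filter turned from -0.10 to 0.12 and from -0.13 to 0.05. Vgll3, a TEAD cofactor that competes with YAP for binding, was 4.51-fold dimmer on high doxycycline and 3.34-fold on tumor (609, 134 and 182). The atypical cadherin gene Dchs1 was 4.24-fold and 4.93-fold dimmer, and Fat4, its binding partner, 2.13-fold and 2.63-fold. Dlg5, a polarity scaffold, was 2.31-fold dimmer on high doxycycline, and Ptpn14, a phosphatase that binds YAP, 2.84-fold on tumor.

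Other YAP target genes are listed apart from the 4 targets above. Of 34 measured, 12 were at least 2-fold dimmer on high doxycycline than on control and 14 on tumor, none was brighter, and the medians over all 34 were -0.76 and -0.85. Over all genes without a filter 5.55% and 6.82% were dimmer in these comparisons, and 10.6% and 11.3% brighter. In each comparison 7 of them were above the array median on control alone. Igfbp3, an IGF-binding protein gene, had 6314, 228 and 183 on control, high doxycycline and tumor. The matrix gene Thbs1 (thrombospondin 1) had 2568, 181 and 150. Tgm2, a transglutaminase, was 5.25-fold and 5.07-fold dimmer. Ccn5 was 5.91-fold dimmer on high doxycycline and 2.21-fold on tumor, and Anln, the cytokinesis protein anillin, 3.98-fold dimmer on tumor. Between tumor and high doxycycline, Ccn5 (1268 against 474) and the receptor kinase gene Axl (1088 against 514) were brighter on tumor and Anln (109 against 340) was dimmer.

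Cytoskeletal genes driven by SRF and its MRTF cofactors, which share several targets with YAP, gave 9 dimmer and 1 brighter of 23 measured on high doxycycline against control and 8 dimmer and 2 brighter on tumor. The medians over all 23 were -0.23 and -0.20, and over the 21 that passed the filter -0.39 and -0.65. Over all genes 5.55% and 6.82% were dimmer and 10.6% and 11.3% brighter. Of the 23, 5 and 4 genes were above the array median on control alone, Tpm2 and Fhl1 among them. Tpm2, a muscle tropomyosin gene, was 8.53-fold and 11.0-fold dimmer, Fhl1 7.30-fold and 5.97-fold, and the integrin gene Itga5 6.20-fold and 4.88-fold. The brighter genes were Lpp, which has 3 probe sets, and on tumor Csrp1 (3783 on control, 8520 on tumor). Myh9 was 2.68-fold and 2.69-fold dimmer on the brighter of its 2 probe sets. With the mean of probe sets the dimmer genes numbered 8 and 7, and Myh9 was no longer among them. The list shares Acta2, Tagln, Cnn1 and Myl9 with the smooth muscle markers.

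**Figure D4:**
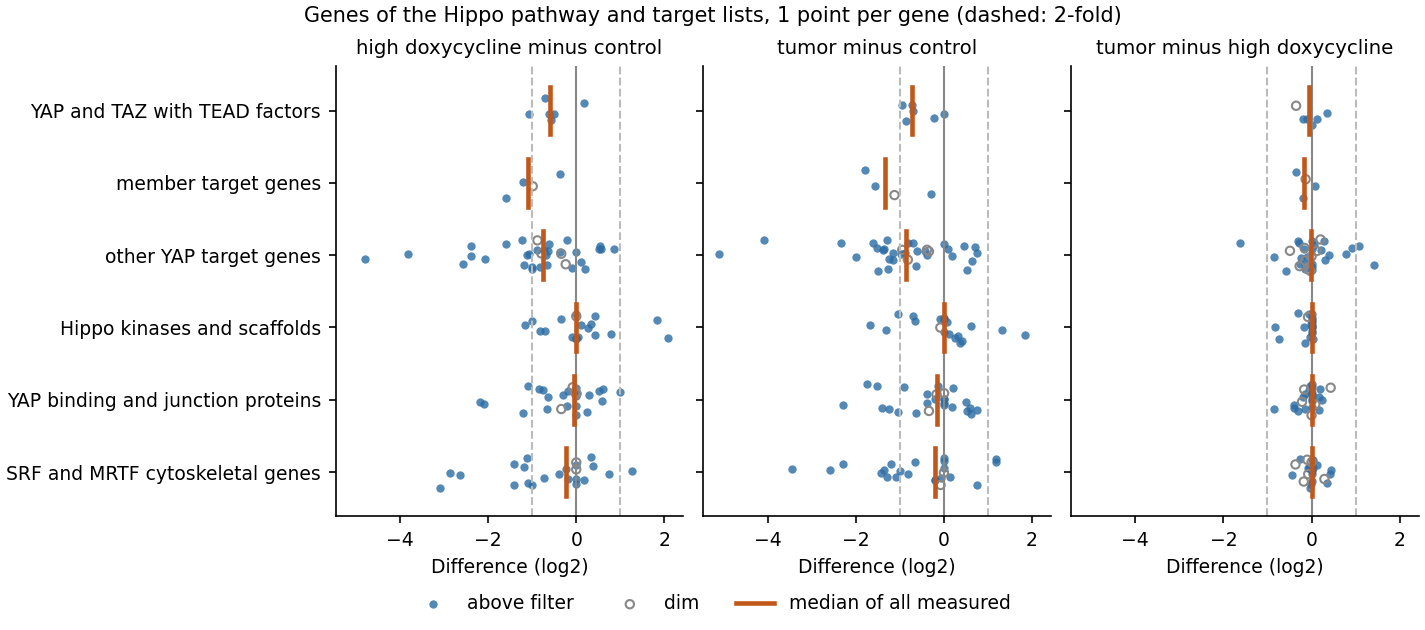
Log2 differences of every measured gene of 6 pathway and target lists in the 3 comparisons, 1 point per gene, open where the gene failed the brightness filter, with bars at the median of all measured genes and dashed lines at 2-fold. The median of the other YAP target genes lies at -0.76 and -0.85 in the comparisons with control and that of the Hippo kinases and scaffolds at 0.

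Other genes had nearly the same 3 differences as the members beyond 2-fold, by Euclidean distance over the 3 log2 differences. The search covered 11373 genes that passed the brightness filter in both comparisons with control. The difference between tumor and high doxycycline follows from the others. Nearest to Ccn1 were Arg1, the arginase of liver and of macrophages, at 0.012, Mypn, a sarcomere protein gene, at 0.022 and Mxra7 at 0.023. Nearest to Ccn2 were Uaca (0.017), the muscle kinase gene Alpk3 (0.058) and Psen2, a gamma-secretase subunit gene (0.065). Nearest to Yap1 were Fermt3, the kindlin of blood cells (0.032), Akna (0.053) and the claudin gene Cldn15 (0.062). Nearest to Ankrd1 were Rhbdf1 (0.013), Nlrx1 (0.036) and Jph1, a muscle junctophilin gene (0.037). Within a distance of 0.2 lay 52 genes for Ccn1, 31 for Ccn2, 76 for Yap1 and 150 for Ankrd1, each out of the 11373 searched. These patterns were thus not confined to the members, though each was shared by a small part of the genes searched. Genes with control highest entered the search through their control value. Some, such as Mypn (257, 83.7 and 72.9 on control, high doxycycline and tumor), were above the array median on control alone. Others, such as Psen2 (1911, 799 and 631), were above it on all 3 arrays.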

How the data were processed

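Total RNA was purified with a column kit, biotin-labelled and hybridised to MoGene-1_0-st-v1 arrays, per the labels. The authors deposited 1 table of linear probe set intensities for 28856 probe sets and 3 arrays; background correction, summarisation and normalization are not given in the sources used here. Probe sets with 1 symbol in the platform annotation (21789) were used, which gave 19938 genes; 1621 with several symbols and 5446 with none were left out. Genes with several probe sets are represented by their brightest on average. Differences are of log2(intensity + 1), called at 1 or more in size; the brightness filter asks that the brighter array of a pair exceeds its own median. No test was possible with 1 array per group. The procedure was checked on simulated data with planted changes well beyond 2-fold and little noise, so the check does not bear on differences near 2-fold. Of 173 list entries 168 were measured; Pals1 is listed as Mpp5, and 9 list genes stand in 2 lists. Named genes are the members, up to 4 called genes with the largest differences per list and comparison, and the 3 nearest genes of each member beyond 2-fold. Map4k4, Lats1, Lats2, Lpp, Csrp1 and the families of the closing section were picked with their values in view. The members and lists were chosen with earlier results of these data known. Promoters are from RefSeq (GRCm38.p6). Analyses used Python 3.11.15 with pandas 2.3.3 and numpy 2.4.6.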

Additional observations from a re-analysis of the deposited data

How the results depend on the processing

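Settings tried were pseudocounts of 16 and 64, probe set means per gene, a brightness filter dropped or raised to percentile 75, quantile normalization and a common median. Ccn1 and Ccn2 stayed at least 2-fold dimmer than on control under all 7 in both comparisons. Yap1 on high doxycycline did so under 5 of 7, falling short with a common median (-0.94) and a pseudocount of 64 (-0.98). Each of these genes has 1 probe set, so the filter settings and the probe set means could not change its difference. Only the pseudocounts, quantile normalization and the common median bear on them. Counts were taken as kept within 1.5 times, and differences and medians where they moved by less than the SD of probe sets about their gene's mean difference (0.44 and 0.45 against control, 0.11 between the others). By this wide rule 506 values were kept, among them those that a setting could not change, and 19 moved. Kept values still include 5 that changed sign, Tead2 and the Hippo and junction list medians, and 6 member differences that fell under 2-fold, 2 of Yap1 and 4 of Ankrd1 (tumor against control). The Hippo medians of high doxycycline and tumor against control, 0.02 and 0.03, became -0.155 and -0.13 under quantile normalization. Apart from those the next sentences tie to a filter or to probe sets, the cause was not tested. Fewer genes entered at percentile 75: the median of the members was then -1.08 for high doxycycline against control (5 genes) and -0.19 for tumor against high doxycycline (3 genes). At the same filter the dimmer genes on high doxycycline numbered 0 Hippo kinases and scaffolds, 2 junction genes and 5 SRF genes, on tumor against control 4 SRF genes (median -0.20), and on tumor against high doxycycline 0 YAP targets. Without a filter the SRF median on tumor against control was also -0.20, whereas it was -0.65 over the 21 genes of the main filter. Quantile normalization gave 3 dimmer Hippo genes, 1 brighter YAP target and 0 brighter SRF genes on high doxycycline, and 1 brighter SRF gene on tumor. A common median gave 1 brighter junction gene and 1 brighter YAP target on high doxycycline. The mean of probe sets gave 0 brighter SRF genes on high doxycycline and 1 on tumor. A pseudocount of 64 left 5 dimmer SRF genes on high doxycycline and 1 YAP target brighter on tumor than on high doxycycline. No paired analysis was possible because each group has 1 array.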

Other observations

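The CCN genes encode 6 related matricellular proteins, and their differences were not uniform. Beside Ccn1 and Ccn2, Ccn4 was dimmer on both arrays than on control (893, 390 and 350 on control, high doxycycline and tumor). Ccn6 had the identical intensity of 141 on all 3 arrays, as 4314 of all 28856 probe sets had identical values, and the origin of these was not tested. Ccn3 had 980, 921 and 1589, so that tumor was its brightest array (0.79 on the log2 scale above high doxycycline). Ccn5 was lowest on high doxycycline (2806, 474 and 1268). Of the 6 genes, Ccn3 and Ccn5 were thus brighter on tumor than on high doxycycline, while Ccn1, Ccn2 and Ccn4 were slightly dimmer (-0.19, -0.36 and -0.16).

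Among the vestigial-like TEAD cofactors, Vgll4, which represses YAP targets, was brighter on the other arrays (3822 on control, 5482 on both others), Vgll2, known from muscle, was dimmer (393, 232 and 208) and Vgll1 stayed below the array median on all 3 (114, 114 and 101). In the angiomotin family Amot was dim on all 3 (205, 194 and 206), and Amotl1 had 1194 on control and 768 on both others. The striated muscle paralogs of Ankrd1 were brighter on control, with Ankrd2 at 1235, 168 and 162 and Ankrd23 at 496, 201 and 260; 13 of 13 muscle markers were also above the median on control, and their part in the Ankrd1 values was not tested.

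Deposited values cluster on a grid whose step equals in size an intensity unit divided by the number of arrays. The origin of the grid was not tested, and the share expected without it was not computed. Of all values 26.9% lay within 0.005 of the grid, with 19.5% for control, 32.2% for high doxycycline and 28.9% for tumor. Of the 33 values of the members 8 did, among them the identical Wwtr1 values.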
